A study of Mus musculus with 23 samples.

Results

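The expression of 6 genes of the T cell receptor complex was followed through 23 mouse RNA-seq libraries: the CD3 chains Cd3d, Cd3e, Cd3g and Cd247, and the receptor constant regions Trac and Trbc2. They were taken by symbol from a count table of 22488 gene symbols, and all 6 were found and passed the filter on low counts in each of the 13 comparisons below. The libraries were made with EASY-RNAseq, a low-input method that primes reverse transcription on the poly(A) tail and fragments the double-stranded cDNA with the Tn5 transposase. From splenic CD3+ T cells, 3 libraries each were made from 100, 500, 1000 and 10000 cells. From diluted RNA, 2 libraries were made at 0.1 ng and 3 each at 0.5, 1 and 5 ng. All samples carry the strain label C57 and an age of 6 to 18 weeks, and no genotype or treatment is listed. The series text describes the RNA as coming from spleen, whereas the sample characteristics name the macrophage line raw 264.7. In that RNA all 9 B cell, all 7 neutrophil, all 6 erythroid and all 9 macrophage marker genes were detected. The B cell markers summed to 27349.5 to 38471 and the macrophage markers to 2682 to 3334 CPM (a gene's count over its library total, on a common scale).

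The T cell receptor is a pair of alpha and beta chains that recognises peptide on MHC molecules but has almost no cytoplasmic tail. It is carried to the surface and signals through the CD3 gamma, delta and epsilon chains and the zeta chain, whose cytoplasmic ITAM motifs are phosphorylated by Lck and then bind Zap70. Trac encodes the constant region of every alpha chain, and a beta chain uses either of the near-identical constant genes Trbc1 and Trbc2. The CD3 chains are expressed by all T cells, whereas gamma-delta T cells use other receptor constants in place of Trac and Trbc2.

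The region before each gene's start is shown for the 4 members that the RefSeq promoter table of GRCm38.p6 holds, because these genes are expressed together. Each line gives the 250 bases upstream of the start, 5′ to 3′ on the gene's own strand. Capitals mark GGAAG, a string that extends the GGAA core of ETS family sites, or its reverse complement CTTCC. The shorter core GGAA was not searched, and unmarked copies of it occur in these windows, that of Cd3g included.
Cd3d: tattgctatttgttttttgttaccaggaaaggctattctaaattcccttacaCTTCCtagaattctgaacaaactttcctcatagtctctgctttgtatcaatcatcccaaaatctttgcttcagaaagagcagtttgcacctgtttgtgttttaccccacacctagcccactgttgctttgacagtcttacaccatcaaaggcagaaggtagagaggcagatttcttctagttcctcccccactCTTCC
Cd3e: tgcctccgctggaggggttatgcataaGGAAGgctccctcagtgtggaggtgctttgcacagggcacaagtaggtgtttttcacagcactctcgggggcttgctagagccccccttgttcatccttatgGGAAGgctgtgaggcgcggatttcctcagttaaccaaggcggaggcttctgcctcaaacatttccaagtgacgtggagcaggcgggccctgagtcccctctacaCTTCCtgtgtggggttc
Cd3g: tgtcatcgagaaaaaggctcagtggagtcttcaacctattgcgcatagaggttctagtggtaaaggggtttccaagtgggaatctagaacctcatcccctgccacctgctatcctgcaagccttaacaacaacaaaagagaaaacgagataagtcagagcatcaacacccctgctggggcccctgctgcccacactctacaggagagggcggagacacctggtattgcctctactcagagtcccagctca
Cd247: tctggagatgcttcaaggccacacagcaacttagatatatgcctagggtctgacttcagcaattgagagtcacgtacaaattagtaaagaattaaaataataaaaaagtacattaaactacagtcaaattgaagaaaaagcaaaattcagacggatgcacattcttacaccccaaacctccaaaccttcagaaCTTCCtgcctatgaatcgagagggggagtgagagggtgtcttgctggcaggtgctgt
Cd3d had 2 matches to GGAAG on either strand, Cd3e had 3, Cd247 had 1 and Cd3g had none. Of 32851 promoters of the same length, 64.1% held at least 1. No member held the TATA box, searched as TATAAA, which was found in 12.4% of all promoters. The RUNX core, searched as TGTGGT, was likewise absent from these windows and was found in 14.0% of all promoters. The GATA site, searched as AGATAA, was present once in Cd3g and in 10.0% of all promoters. The E-box, searched as CANNTG, was present in all 4 members, 1 to 3 times each, and in 66.2% of all promoters. All were searched on both strands. GC content was 41.2% for Cd3d and for Cd247, 51.6% for Cd3g and 57.2% for Cd3e, against a median of 52.4%. The motifs were chosen after the data were seen, and a match is a description of the letters only.

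The beta constant genes are shown because Trbc2 can be counted apart from Trbc1 only where the sequences differ. Over 518 coding bases, from GENCODE M21 transcripts, they were 95.6% identical. Exon 1 differed at 1 of 375 bases, and the other 22 differences lay in the last 143 coding bases. The longest identical run was 259 bases. The lines give the stretch around the difference in exon 1 and the coding bases after exon 1, 5′ to 3′, with the differing bases in capitals.
Trbc1, around the exon 1 difference: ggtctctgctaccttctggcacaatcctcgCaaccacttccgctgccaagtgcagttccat
Trbc2, around the exon 1 difference: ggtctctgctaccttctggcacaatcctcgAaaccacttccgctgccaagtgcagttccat
Trbc1, after exon 1: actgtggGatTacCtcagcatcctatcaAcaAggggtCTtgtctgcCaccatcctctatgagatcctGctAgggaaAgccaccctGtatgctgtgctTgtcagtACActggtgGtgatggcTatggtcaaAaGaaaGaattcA
Trbc2, after exon 1: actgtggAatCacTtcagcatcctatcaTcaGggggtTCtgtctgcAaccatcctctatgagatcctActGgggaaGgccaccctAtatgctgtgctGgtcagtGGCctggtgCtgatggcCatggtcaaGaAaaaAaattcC
Reads that lie wholly within identical stretches cannot be assigned to either gene by sequence, so counts of Trbc2 and Trbc1 are uncertain as separate values. How many reads this covers was not tested. The 3′ untranslated regions, of 216 bases in Trbc1 and 171 in Trbc2, were not compared.

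Totals ran from 1849181 to 3760980 counts in T cell libraries and from 1737067 to 7908638 in RNA libraries, and the lowest count of any member was 67, for Cd3d at 0.1 ng. Replicate 3 of the 100-cell group stood apart from the other T cell libraries. Its B cell markers summed to 14791 CPM against a mean of 1032 in replicates 1 and 2, its neutrophil markers to 1863 against 24.0, its erythroid markers to 1297 against 27.0, and its 4 Y-linked genes to 184 against 2.16. The 6 members stood there at 51.5% to 69.6% of the mean of replicates 1 and 2. In 5 ng RNA the same sums averaged 37668 CPM for B cell, 4635 for neutrophil, 4063 for erythroid and 341 for Y-linked genes. The part of RNA from other cells in the members' lower CPM was not tested. In bulk libraries, fewer T cells and less RNA per T cell cannot be told apart either.

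**Figure D1:**
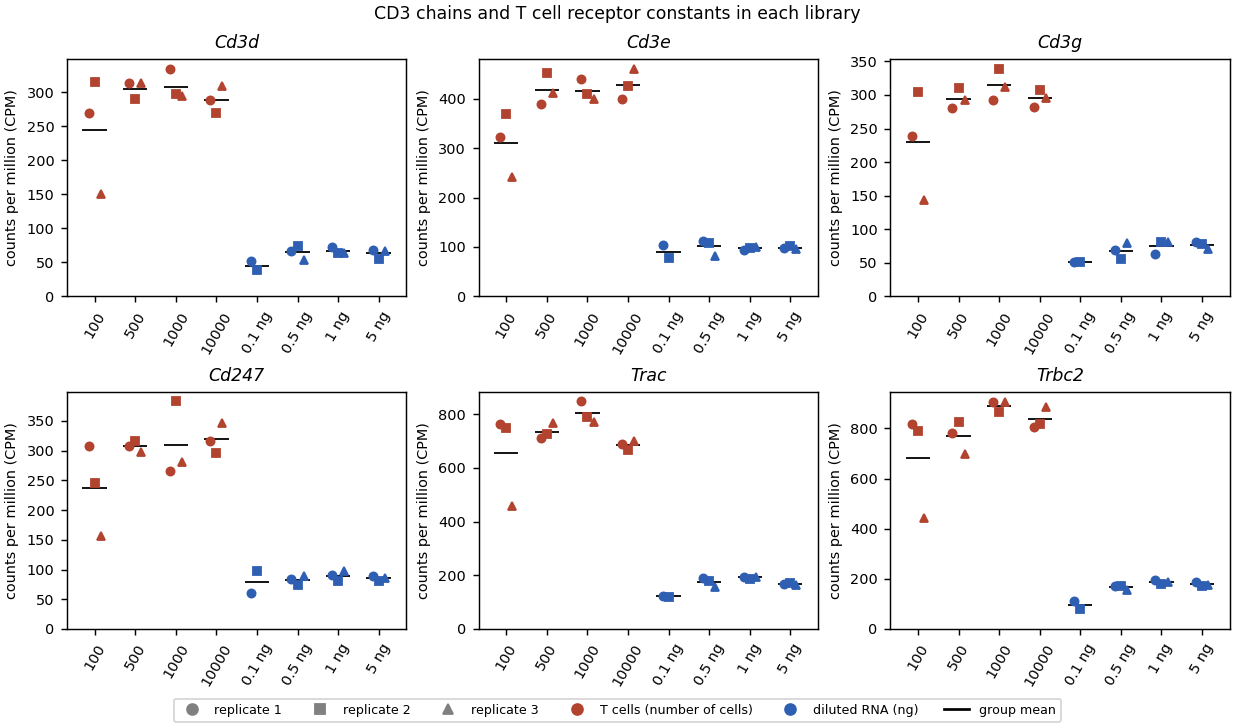
CPM (vertical axis) of the 6 genes in each of 23 libraries, by group (horizontal axis, number of T cells or ng of RNA), with marker shapes for replicates and a line at each group mean. All T cell libraries lie above all RNA libraries for each gene, and 100-cell replicate 3 is the lowest T cell library. How many other genes separate in this way was not tested.

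Among the CD3 chains, Cd3e had more counts than Cd3d, Cd3g or Cd247 in 10000 T cells. There Cd3e, the epsilon chain shared by both CD3 dimers, measured 399.6, 425 and 461 CPM, and in 5 ng RNA 98.7, 101 and 95.5 CPM. Every T cell library was above every RNA library. Cd3d, the delta chain, measured 288, 269 and 309.8 CPM in 10000 T cells and 67.8, 55.4 and 66.3 CPM in 5 ng RNA. Cd3g, the gamma chain, measured 282, 308 and 296 CPM in 10000 T cells and 81.0, 78.2 and 70.4 CPM in 5 ng RNA. Again the groups did not overlap, but the share of all genes that separate in this way was not tested. Cd247, the zeta chain, which carries more ITAMs than any other chain of the complex, measured 316, 296 and 346 CPM in T cells and 89.0, 81.5 and 85.7 CPM in RNA.

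The receptor constants had more counts than the CD3 chains. Trac measured 688, 667 and 699.9 CPM in 10000 T cells and 168, 171 and 163 CPM in 5 ng RNA. Trbc2 measured 804, 816 and 887 CPM in 10000 T cells and 189, 169.9 and 177 CPM in 5 ng RNA. For both genes the T cell libraries lay above all RNA libraries, again without a test of how many other genes do so. Together the 6 genes made up 0.285% ± 0.0127 (SD, n = 3) of all counts in 10000 T cells and 0.0669% ± 0.00208 (n = 3) in 5 ng RNA.

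At the other inputs the same separation held, with every T cell library above every RNA library for each gene. The share of all genes that separate in this way was not tested, so the separation is not shown to be particular to these genes. In edgeR's test of 10000 T cells against 5 ng RNA, 28.7% of 14425 genes passed as higher in T cells. Cd3e averaged 311 ± 65.3 CPM (SD, n = 3) at 100 cells, 418 ± 31.5 at 500 and 417 ± 20.7 at 1000, and 90.8 ± 19.3 (n = 2) at 0.1 ng, 101 ± 16.9 at 0.5 ng and 97.1 ± 3.38 at 1 ng. Cd3d averaged 245 ± 85.0, 305 ± 13.2 and 308 ± 22.3 CPM in the 3 smaller T cell inputs, and 45.0 ± 9.11, 64.6 ± 11.1 and 66.7 ± 5.31 in the 3 smaller RNA inputs, in the same order. Cd3g averaged 229 ± 81.0, 294 ± 14.8 and 315 ± 23.7 CPM in T cells and 51.4 ± 0.613, 68.0 ± 12.1 and 75.3 ± 10.5 in RNA. The SD of these 3 chains was largest at 100 cells, with replicate 3 included. Cd247 averaged 236 ± 76.3, 307 ± 9.64 and 309.6 ± 64.4 CPM in T cells and 78.7 ± 26.3, 82.2 ± 7.40 and 89.5 ± 8.85 in RNA. Trac averaged 656 ± 173, 734 ± 29.7 and 802 ± 39.5 CPM in T cells and 122 ± 2.51, 174 ± 17.4 and 192 ± 4.12 in RNA. Trbc2 averaged 682 ± 209, 769 ± 63.4 and 891 ± 23.7 CPM in T cells and 95.7 ± 24.6, 167 ± 8.63 and 187 ± 7.98 in RNA. Each gene, CD3 chain or constant, had its lowest RNA mean at 0.1 ng. In T cells the lowest mean of Trac and of Trbc2 was at 100 cells only with replicate 3. Replicates 1 and 2 averaged 755 CPM for Trac and 803 CPM for Trbc2. Without replicate 3 the 100-cell means were 292 CPM for Cd3d, 346 for Cd3e, 272 for Cd3g and 277 for Cd247.

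Levels between genes were compared per kilobase. Using the union of exons in GENCODE M21, the order in 10000 T cells was Trbc2 at 1208 ± 64.2 CPM per kilobase (SD, n = 3), Trac at 732 ± 17.9, Cd3d at 159 ± 11.2, Cd3e at 105 ± 7.56, Cd3g at 90.4 ± 3.90 and Cd247 at 59.9 ± 4.72. No neighbours in that order overlapped. In 5 ng RNA the order was the same, with Cd3e (23.4 to 24.6) and Cd3g (21.5 to 24.8) overlapping. The order among the CD3 chains depended on the length used, a comparison added after the data were seen. With the longest coding transcript, Cd3e stood at 293 ± 21.1 and Cd3g at 289 ± 12.4 CPM per kilobase in 10000 T cells, above Cd3d at 179 ± 12.5 and Cd247 at 108 ± 8.50. Trbc2 and Trac came first and second, and Cd247 last, with both lengths.

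All 6 genes were higher in T cells than in RNA where the input was largest. The T cells were chosen as CD3+, so this direction was set by the choice of cells. For 10000 T cells against 5 ng RNA, the log2 fold change was 2.11 (SE 0.0532, edgeR adjusted p = 2.75e-42) for Trbc2, 2.08 (SE 0.0794) for Cd3d, 2.01 (SE 0.0649) for Cd3e, 1.92 (SE 0.0536) for Trac, 1.84 (SE 0.0740) for Cd3g and 1.79 (SE 0.0718, adjusted p = 2.33e-31) for Cd247. All 6 passed the adjusted threshold of 0.05 in edgeR's quasi-likelihood test, where 56.0% of 14425 genes passed and 28.7% were higher in T cells. Their median log2 fold change was 1.97, against 0.03 over all genes tested. RNA held between 21.4% (Trbc2) and 26.8% (Cd247) of the CPM in T cells. All 6 were called under every alternative run for this comparison.

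The difference was of similar size at the next input steps. For 1000 cells against 1 ng all 6 genes were higher, with log2 fold changes from 1.78 (SE 0.128) for Cd247 to 2.25 (SE 0.0745) for Trbc2, where 40.0% of 12656 genes passed and 20.1% were higher. For 500 cells against 0.5 ng all 6 were higher again, from 1.89 (SE 0.124) for Cd247 to 2.23 (SE 0.139) for Cd3d, where 37.1% of 13001 genes passed and 19.0% were higher. The sum of the 6 in RNA was 23.2% of that in T cells at both steps and 23.5% at the largest input.

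At the smallest inputs 2 of the 6 genes were called. In 100 T cells Trac measured 764, 747 and 457 CPM, against 123 and 119.7 CPM in 0.1 ng RNA. Trbc2 measured 816, 789.5 and 441 CPM, against 113 and 78.3 CPM. The groups did not overlap, and replicate 3 was the lowest for both genes. How many other genes separate in this way was not tested. The log2 fold change was 2.45 (SE 0.306) for Trac and 2.85 (SE 0.359) for Trbc2, each with an edgeR adjusted p of 0.0451, where 7 of 13073 genes passed (0.0535%), all higher. The CD3 chains did not pass: Cd3d stood at 2.46 (SE 0.412) and Cd3g at 2.18 (SE 0.397), Cd3e at 1.79 (SE 0.320) and Cd247 at 1.60 (SE 0.394), with adjusted p from 0.111 to 0.201. The estimates of Cd3d and Cd3g were above, and those of Cd3e and Cd247 below, the estimates at the other 3 steps, and all 4 standard errors were larger. Without 100-cell replicate 3 all 6 were called, with adjusted p from 0.000271 (Trac) to 0.0234 (Cd247). Leaving out any other library of this comparison left none called. DESeq2, a fit without the low-count filter and a fit of all 8 groups each called all 6, and DESeq2 size factors in edgeR left none called (adjusted p = 0.0571 for Trac and Trbc2).

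**Figure D2:**
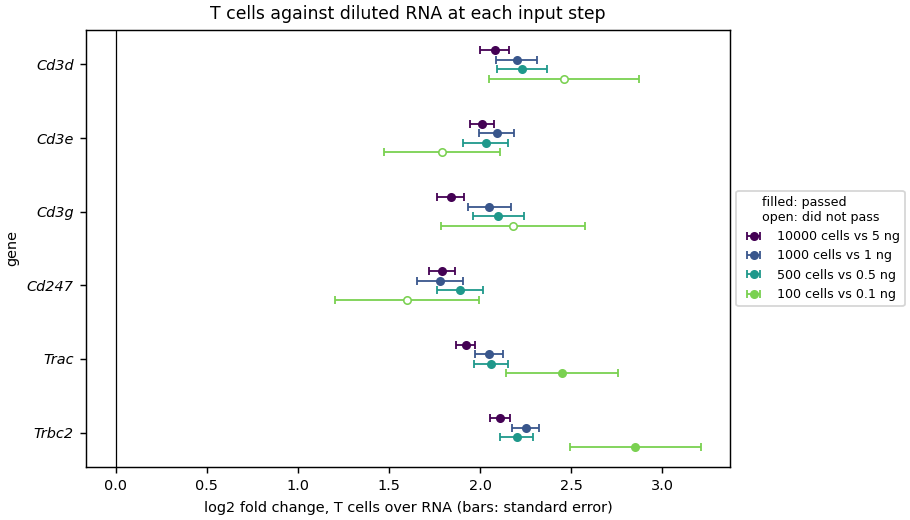
Log2 fold change of T cells over RNA (horizontal axis, bars are standard errors) for each gene at 4 input steps; filled points passed the adjusted threshold of 0.05 and open points did not. Estimates lie between 1.60 and 2.85, with wider bars for 100 cells against 0.1 ng.

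Within T cells, levels were compared between each lower input and 10000 cells. None of the 6 passed at 100 cells, where none of 14099 genes passed in edgeR (0.0%), 1691 had an unadjusted p under 0.05 and DESeq2 called 349 genes, no member among them. The lowest adjusted p of a member was 0.29, for Cd3e, at a log2 fold change of -0.47 (SE 0.162). Without replicate 3, where 357 genes passed, Cd3e stood at -0.34 (SE 0.105, adjusted p = 0.113) and Cd3d at -0.01, and the estimates moved toward 0 for all but Trac, which went from -0.07 to 0.11. None of the 6 passed at 500 cells, where 3.23% of genes passed, and estimates ran from -0.13 to 0.09. At 1000 cells, where 3.27% passed and 1.23% were higher, Trac alone of the 6 was called. It measured 847, 789 and 772 CPM there, above all 10000-cell libraries, and its log2 fold change was 0.24 (SE 0.0579, edgeR adjusted p = 0.0102). That call was lost without 1000-cell replicate 1 (adjusted p = 0.0685), without 10000-cell replicate 1 (0.0695) or replicate 2 (0.0854), and in a fit of all 8 groups (1.0).

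Within RNA, Trac and Trbc2 were called as lower at the smallest input. The other beta constant, Trbc1, was not called at 0.1 against 5 ng, at 0.34 (SE 0.247, edgeR adjusted p = 0.393). The sum of Trbc1 and Trbc2 did not pass either. Against 5 ng, the log2 fold change at 0.1 ng was -0.51 for Trac (SE 0.105, edgeR adjusted p = 0.0385) and -0.94 for Trbc2 (SE 0.175, adjusted p = 0.0321), where 11.2% of genes passed and 6.55% were lower. Cd3g stood at -0.62 (adjusted p = 0.0653), Cd3d at -0.53, Cd247 at -0.17 and Cd3e at -0.16, none of which passed. Both calls were lost without any 1 of the 5 ng libraries (adjusted p from 0.162 to 0.196), when 0 or 1 of all genes passed. Without 0.1 ng replicate 1, 5 of the 6 were called, and without replicate 2, 4 of the 6, with the remaining library assumed to vary like those at 5 ng. None of the 6 passed at 0.5 ng (5.09% of genes) or at 1 ng (0.0238%).

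Slopes over the logarithm of the input gave no member a call. Per unit of log10 cells, estimates ran from 0.02 for Trac to 0.20 for Cd3e on the log2 scale, where 0.692% of genes passed. Without 100-cell replicate 3 they ran from -0.08 for Trac to 0.12 for Cd3e, and those of Trac and Cd3d changed sign without a call. Per unit of log10 ng they ran from 0.03 for Cd3e to 0.43 for Trbc2 (SE 0.125, edgeR adjusted p = 0.0554), where 5.16% passed. The difference between the slopes of T cells and RNA passed for no member (2.18% of genes passed). Trbc2 came to -0.36 (SE 0.161, adjusted p = 0.233), and to -0.49 (SE 0.133, adjusted p = 0.0399) without 100-cell replicate 3.

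**Figure D3:**
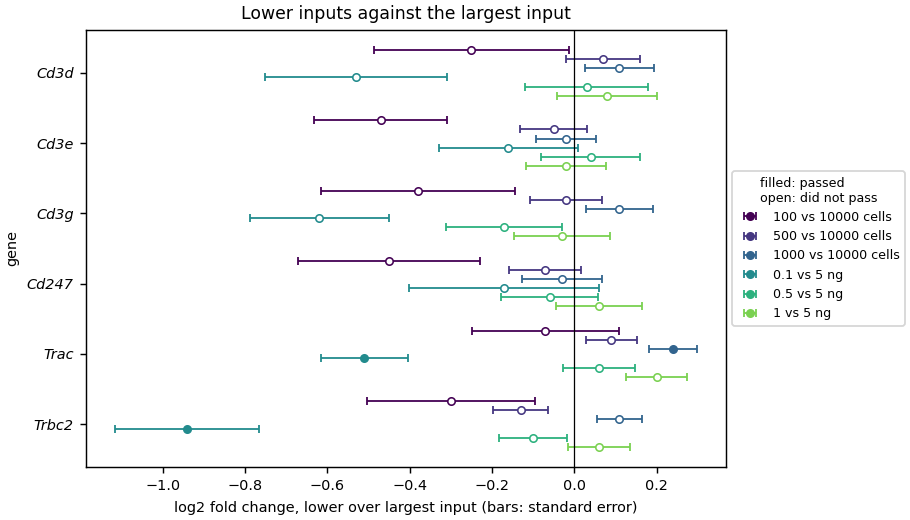
Log2 fold change of each lower input over the largest input of the same material (horizontal axis, bars are standard errors) for the 6 genes; filled points passed the adjusted threshold of 0.05. Filled points are Trac at 1000 cells, at 0.24, and Trac and Trbc2 at 0.1 ng, at -0.51 and -0.94.

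The median coefficient of variation of the 6 genes was 4.68% at 500 cells, 6.10% at 1000 and 6.16% at 10000, against 19.4%, 16.2% and 10.8% for the median of all genes above 10 CPM. Cd247 at 1000 cells was above that median, at 20.8%. The comparison set reaches down to 10 CPM, far below the members, and spread was not compared at matched abundance. Counting error alone at 10000 cells, with each count taken as an independent molecule, ran from 1.84% for Trbc2 to 3.13% for Cd3d. At 100 cells the members stood at 31.5% and all genes at 33.7%, and without replicate 3 at 10.5% and 26.0%. In RNA the members stood at 20.7% at 0.1 ng (n = 2), 13.3% at 0.5 ng, 6.12% at 1 ng and 4.84% at 5 ng, against 30.1%, 14.3%, 11.7% and 7.53% for all genes. At 0.5 ng Cd3g reached 17.7%. Across the 12 T cell libraries the members' log2 CPM had a median pairwise correlation of 0.846, and 0.225 over the 11 without 100-cell replicate 3, so the first value rests on that library. The libraries share a scaling by total count.

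The make-up of the set was compared as each gene's share of the counts of all 6, which a common scaling of the set leaves as it is. These are shares of RNA counts, not of protein in the receptor complex. Markers of cells other than T cells were present in the RNA, and whether such cells contributed to the shares was not tested. Trbc2 made up 28.6% ± 1.38 (SD, n = 12) in T cells and 25.0% ± 2.99 (n = 11) in RNA (two-sided permutation test, p = 0.00016, adjusted over the 7 values tested 0.00056). Its T cell shares lay between 25.2% and 30.5% and its RNA shares between 16.9% and 27.3%, so the ranges overlapped. Cd247 made up 10.5% ± 1.15 in T cells and 13.4% ± 2.70 in RNA (permutation p = 0.00016, adjusted 0.00056), and 12.7% ± 0.981 in the 9 RNA libraries above 0.1 ng. Cd3d made up 10.3% ± 0.684 in T cells and 9.51% ± 0.917 in RNA (permutation p = 0.0237, adjusted 0.0415), which no longer passed without the 0.1 ng libraries (adjusted 0.0668) or with the larger 2 inputs of each material alone (exact permutation, adjusted 0.14). Cd3e, Cd3g and Trac did not pass, with 14.2% and 15.3%, 10.2% and 10.8%, and 26.1% and 26.0%. With counts per kilobase of exon as the base, these 3 took smaller shares in T cells, by a difference of -0.624, -0.482 and -2.06 percentage points, and passed (permutation, adjusted 0.0334 each) and Cd3d did not (adjusted 0.474), while Trbc2 and Cd247 passed on both bases. The seventh value was the log2 ratio of the constants to the CD3 chains, at 0.273 in T cells and 0.0577 in RNA (permutation p = 0.00082, adjusted 0.00191). It did not pass with the larger 2 inputs of each material alone (exact permutation, adjusted 0.136) or with Trbc1 and Trbc2 added (permutation, adjusted 0.127). Per kilobase of exon (permutation, adjusted 0.00574) and without the 0.1 ng libraries (exact permutation, adjusted 0.00606) it passed. Without 100-cell replicate 3 the shares of Cd3d, Cd247 and Trbc2 still passed (adjusted 0.0288, 0.00056 and 0.00056). Within a single step of 3 against 3 libraries the smallest exact p is 0.1. Trbc2 reached it at 10000 cells against 5 ng (29.3% and 26.7%) and at 1000 against 1 ng but not at 500 against 0.5 ng (exact p = 0.3), and Cd247 reached it at 10000 cells and at 500 cells but not at 1000 (exact p = 0.2).

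**Figure D4:**
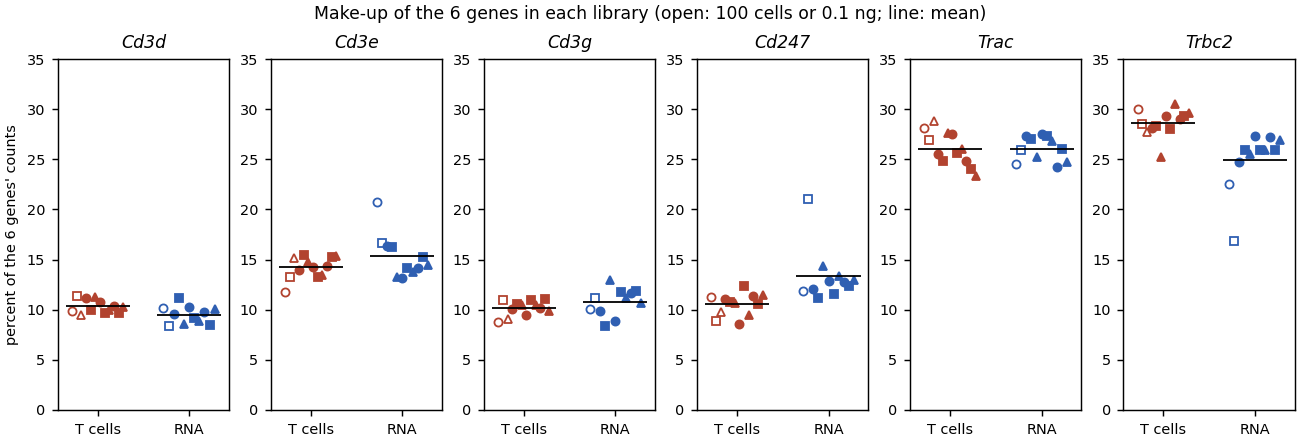
Percent of the counts of the 6 genes taken by each gene (vertical axis) in 12 T cell and 11 RNA libraries; open symbols are 100 cells or 0.1 ng and lines are means. Trbc2 averages 28.6% in T cells and 25.0% in RNA, and Cd247 10.5% and 13.4%.

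The difference in Trbc2 did not pass when both beta constants were counted together over all 11 RNA libraries. That alternative was added after the data were seen. Trbc1 and Trbc2 together made up 39.9% ± 1.10 of the set in T cells and 39.2% ± 3.18 in RNA (permutation p = 0.527, adjusted 0.615). The RNA values ran from 35.4% to 47.7% with the 0.1 ng libraries included, and the sum was not tested without them. Cd247 still differed on that base, at 8.88% and 10.8% (permutation p = 0.00234, adjusted 0.0164). Trbc1 took 39.5% ± 2.76 (SD, n = 12) of the beta constant counts in T cells and 43.8% ± 1.82 (n = 9) in RNA at 0.5 to 5 ng (two-sided exact permutation test, p = 0.000674). At 0.1 ng it took 68.2% (95% Wilson interval 64.6 to 71.5) and 62.8% (57.8 to 67.6), above every other library, of which the highest was 46.2%. The exact permutation p of 0.1 ng against 5 ng was 0.2, the smallest that 2 against 3 libraries allow. At 0.1 ng Trbc1 itself measured 242 and 132 CPM, against 154, 145 and 131 CPM at 5 ng. The sum of both genes at 0.1 ng stood at a log2 fold change of -0.23 from 5 ng (SE 0.209, edgeR adjusted p = 0.493), in contrast to -0.94 for Trbc2 by its own row. Whether reads were assigned differently between the near-identical genes was not tested. Intervals cover counting error only and take each count as an independent molecule. The counts may not be independent, in which case the intervals are too narrow.

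**Figure D5:**
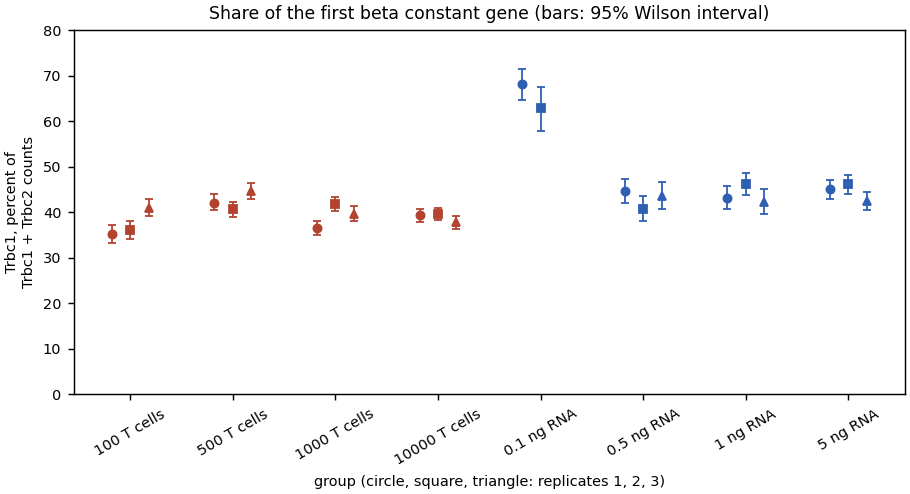
Trbc1 as a percent of Trbc1 plus Trbc2 counts (vertical axis) in each library by group (horizontal axis). Bars are 95% Wilson intervals that cover counting error only and take counts as independent. The 0.1 ng libraries lie at 68.2% and 62.8%, and all others between 35.2% and 46.2%.

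Other parts of the receptor pathway were described for 10000 T cells against 5 ng RNA, where 28.7% of genes were higher and 27.3% lower. Of the other receptor chains, 5 of 5 tested were higher, with a median log2 fold change of 1.78. They were Trbc1 at 1.78 (SE 0.0593), the delta constant Trdc at 1.42 (SE 0.226), and the gamma constants Tcrg-C1 at 2.07 (SE 0.281), Tcrg-C2 at 1.88 (SE 0.273) and Tcrg-C4 at 1.75 (SE 0.257). Tcrg-C3 and the pre-T alpha chain Ptcra did not pass the filter on low counts. All 10 co-receptors and co-stimulatory genes were higher, with a median of 1.61, among them Cd4 at 1.90 (SE 0.0589), Cd8b1 at 1.61 (SE 0.0612), Cd5 at 1.98 (SE 0.0652) and Cd6 at 2.18 (SE 0.0610).

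Of 33 genes that act just below the receptor, 22 were higher and 8 lower, with a median of 0.97. Lck, which phosphorylates the CD3 ITAMs, stood at 1.88 (SE 0.0490). Ptprc, the CD45 phosphatase found on all leukocytes, stood at 0.15 (SE 0.0317). Csk, the kinase that restrains Lck and is widely expressed, was lower, at -0.24 (SE 0.0520). Of 14 T lineage regulators, 9 were higher and 2 lower, with Tcf7 at 2.15 (SE 0.0436), Satb1 at 1.43 (SE 0.0461) and Ets1 at 0.77 (SE 0.0404), while Ikzf1 did not pass at 0.01 (SE 0.0432).

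The ITAM adaptors and receptors of other cells went the other way, with 6 of 7 lower. Cd79a and Cd79b, the signalling chains of the B cell receptor, stood at -4.35 (SE 0.0747) and -4.25 (SE 0.0629), and Tyrobp, the adaptor of myeloid and NK cell receptors, at -3.99 (SE 0.159). Hcst, the DAP10 adaptor, which signals through a motif other than an ITAM, was higher, at 0.83 (SE 0.146). Markers of B cells (9 of 9), macrophages (9 of 9), neutrophils (7 of 7) and erythroid cells (6 of 6) were all lower in T cells. NK cell markers were mixed, with 5 of 7 lower and 1 higher. The 4 Y-linked genes were all lower, at 0.0 to 4.33 CPM summed in the 11 T cell libraries other than 100-cell replicate 3 and 287 to 456 CPM in RNA. The part of these differences in the members' difference was not tested.

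The genes whose log2 CPM followed the summed members most closely over 23 libraries, among 9428 with a mean of at least 10 CPM, were Arl4c (r = 0.994), Lck (0.989), Lef1 (0.989), Il7r (0.988) and Saraf (0.988). Of the 9428 genes, 91 had r above 0.95. The libraries fall into 2 materials, and r over all of them includes the step between T cells and RNA, so no p is given. Within the 12 T cell libraries r ran from 0.771 (Lef1) to 0.925 (Saraf), but over the 11 without 100-cell replicate 3 it ran from -0.157 (Lck) to 0.605 (Arl4c), and within the 11 RNA libraries from 0.385 (Lck) to 0.861 (Arl4c). Ranking without 100-cell replicate 3 put Gimap3 in place of Il7r, and ranking by Spearman's rho named 5 other genes.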

How the data were processed

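The deposited table holds whole-number counts per gene symbol in 23 libraries, with no normalization by the authors. HISAT2 2.1.0, featureCounts and build mm8 are listed in the submitters' processing notes. Between 57.9% and 70.7% of a library's nonzero counts were even, so counts may not be independent molecules. No coordinates are given, since the reference is GRCm38. The members, lists and tests were chosen with earlier results of these data known. Each comparison was fitted over all genes with edgeR 4.0.16 (R 4.3.3): TMM, filterByExpr and the quasi-likelihood test on the libraries compared alone, with a threshold of 0.05 after Benjamini-Hochberg adjustment. SE is the log2 fold change over the square root of F. DESeq2 1.42.0 was an alternative. Shares were tested by two-sided permutation (100000 resamples, or exact). Correlations used log2(CPM + 1). Named genes are the members, up to 4 genes per list with the highest mean CPM, every measured receptor chain, and the 5 most like the members. A gene that this rule names is not reported here. The labels do not say whether replicates were separate animals, cultures or dilutions, so p-values measure the spread between these libraries, which may be technical.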

Additional observations from a re-analysis of the deposited data

How the results depend on the processing

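In the 3 comparisons of T cells with RNA above the smallest input, all 6 genes were called under every alternative run, counting Trbc1 plus Trbc2 as 1 row where they were added. For 100 cells against 0.1 ng the count of 2 rose to 6 with DESeq2, with no filter, with the replicate block and in 1 fit of all 8 groups, fell to 0 with DESeq2 size factors and with Trbc1 and Trbc2 added, and ran from 0 to 6 on leaving out 1 library (6 without 100-cell replicate 3). With the block Trac was lost at 0.1 against 5 ng (adjusted p = 0.433). For 100 against 10000 cells the fit of all 8 groups called 1 member (Cd3e) in place of 0. For 1000 against 10000 cells it called 0 in place of 1, and leaving out 1 library gave 0 to 1. For 0.1 against 5 ng the count of 2 was 1 with the replicate block, 4 in the fit of all 8 groups, 1 with Trbc1 and Trbc2 added, and 0 to 5 on leaving out 1 library. For the slope over ng DESeq2 and no filter each called 1 (Trbc2) in place of 0, and leaving out 1 library gave 0 to 1. For the difference of slopes leaving out 1 library gave 0 to 1. Counts over all genes moved by more than 1.5 times in places. The fit of all 8 groups called 4269 in place of 8073 for 10000 cells against 5 ng, 4193 in place of 7 for 100 cells against 0.1 ng, and, for 500 and 1000 against 10000 cells, 65 and 24 in place of 441 and 438. DESeq2 called 684 for 100 cells against 0.1 ng, 1037 and 783 for 500 and 1000 cells, 2963 in place of 1572 for 0.1 ng and 1376 in place of 639 for 0.5 ng. The block called 1081 for 100 cells against 0.1 ng and 396 for 0.1 ng. On leaving out 1 library, 0.1 against 5 ng gave 0 or 1 without a 5 ng library and 7869 or 8075 without a 0.1 ng library, 100 against 10000 cells gave 357 in place of 0 and 100 cells against 0.1 ng 545 in place of 7 without 100-cell replicate 3, and the slope over cells gave 8 to 13 in place of 97 without a 10000-cell library. Of the 7 values of make-up, 4 passed, against 2 with the larger inputs alone, 2 with Trbc1 and Trbc2 added and 6 per kilobase of exon. The genes most like the members shared 0 of 5 with the ranking by Spearman's rho. Satb1 at 0.1 against 5 ng ran from -0.21, a change of sign without 0.1 ng replicate 2, to 0.18 on leaving out 1 library, and the difference in the share of Trac changed sign to -2.06 per kilobase of exon; the cause was not tested. Of 1139 values of members under alternatives, 33 changed sign, and 0 of these had a call on either side. Same-numbered libraries did not deviate together from their group means: over 33 pairs r ran from -0.0155 to 0.021. Whether same-numbered libraries share an animal or a batch was not tested, and the labels do not say. Only 2 libraries at 0.1 ng and the library that stands apart at 100 cells limit the comparisons at the smallest inputs.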
